A study of Mus musculus with 4 samples.

Results

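The Sall family of zinc finger transcription factors was followed in RNA sequencing libraries of mouse forelimbs that were cultured with or without cyclopamine. Its members were taken by gene name, and all 4 of them (Sall1, Sall2, Sall3 and Sall4) were found among the 17568 rows of the expression table. Wild type embryos of the Swiss Webster stock, at E10.25 (31 to 34 somites), gave the limbs. One group of 2 libraries was cultured in control medium, and the other group of 2 in medium containing cyclopamine, a plant alkaloid that inhibits the Hedgehog signal transducer Smoothened. The labels give no transgene. The sources used here state neither the cyclopamine dose and vehicle nor how long the limbs were cultured or how many went into a library. The libraries are called biological replicates without a statement of separate litters or cultures, so the p-values measure only the spread between these libraries.

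Sall proteins are the vertebrate relatives of Drosophila spalt. They carry paired zinc fingers spread along the protein, and Sall1 and Sall4 are best known as repressors that recruit the NuRD chromatin remodelling complex through a short motif at the start of the protein. In the limb, Sall1 and Sall3 act together in digit formation, and Sall4 works with the forelimb factor Tbx5. Mutations of human SALL1 cause Townes-Brocks syndrome and mutations of SALL4 cause Duane-radial ray syndrome, both with limb defects, and Sall4 is also a stem cell factor. Sall2 is the most divergent member and has an alternative first exon.

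The coding starts of Sall2 and Sall4 are shown because the Sall4 start and the upstream Sall2 start hold the shared repressor motif. The downstream Sall2 start does not hold it, so the sequences also show how the Sall2 first exons differ. They were read from GENCODE vM21 transcripts (GRCm38, minus strand in each case), 36 bases from the start codon. Capitals mark the bases that are the same in Sall4 and the Sall2 transcript that begins at the upstream first exon. The positions are chr14:52328140-52328175 for the upstream exon of Sall2, chr14:52316074-52316109 for its downstream first exon and chr2:168766994-168767029 for Sall4.
Sall2 upstream exon: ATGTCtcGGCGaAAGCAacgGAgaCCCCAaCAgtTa
Sall2 downstream exon: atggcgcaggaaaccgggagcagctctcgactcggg
Sall4: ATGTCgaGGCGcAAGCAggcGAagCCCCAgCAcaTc
The same base stood at 24 of the 36 positions in Sall4 and the upstream exon of Sall2. The downstream exon of Sall2 shared 13 bases with Sall4. The deposited values are per gene, so the Sall2 isoforms were not separated.

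Upstream sequence is shown for the member that fell most and the member whose groups overlapped, each over the 250 bases before a transcript start that RefSeq (GRCm38.p6) and GENCODE place at the same base, on the minus strand. The RefSeq table matched 2 of the 4 members, Sall1 and Sall2. Both strands were searched for the GLI consensus GACCACCCA, the TATA box TATAAA, the sequence CCAAT and the GC box GGGCGG, and capitals mark a match. The windows are chr8:89044163-89044412 for Sall1 and chr14:52316324-52316573 for Sall2.
Sall1 upstream: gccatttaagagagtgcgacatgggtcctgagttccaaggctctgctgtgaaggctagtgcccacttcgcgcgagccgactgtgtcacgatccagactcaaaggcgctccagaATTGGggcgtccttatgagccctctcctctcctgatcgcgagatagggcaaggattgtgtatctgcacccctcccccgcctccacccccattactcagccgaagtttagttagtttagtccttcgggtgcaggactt
Sall2 upstream: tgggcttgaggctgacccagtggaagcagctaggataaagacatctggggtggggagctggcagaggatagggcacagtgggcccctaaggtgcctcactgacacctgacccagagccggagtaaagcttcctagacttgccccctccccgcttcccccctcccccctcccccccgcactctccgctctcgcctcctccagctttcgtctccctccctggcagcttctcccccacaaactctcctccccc
The table lists 3 windows for Sall1 and 2 for Sall2, 1 for each RefSeq start, and all were searched. The GLI consensus was in 0 of them, and 0.225% of 32851 RefSeq windows of the same length hold it. The Sall1 window shown held 1 match, ATTGG, which is CCAAT on the other strand and is found in either orientation in 33.85% of windows. The Sall2 window shown held 0 matches to the 4 motifs. The other Sall1 windows held 4 GC boxes and 1 GC box, and the other Sall2 window, at 28% G and C, held 1 CCAAT sequence and 1 TATA box. TATAAA is in 12.4% of windows and GGGCGG in 32.7%. The Sall1 window shown was 56.4% G and C with 13 CpG dinucleotides, and that of Sall2 was 64.4% with 6, beside medians of 52.4% and 6 over all windows. These letters describe short windows only.

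In mm10, the build named in the submitters' processing notes, Sall1 lies on chromosome 8 from 89027235 to 89044162 (ENSMUSG00000031665.7), and Sall2 on chromosome 14 from 52311172 to 52328762 (ENSMUSG00000049532.11). Sall3 lies on chromosome 18 from 80966376 to 80986771 (ENSMUSG00000024565.9), and Sall4 on chromosome 2 from 168748332 to 168767943 (ENSMUSG00000027547.17). Their annotated transcripts hold up to 4 exons, or 2 in the case of Sall2, and their merged exons cover 5.265, 5.433, 7.481 and 5.536 kb in the order Sall1 to Sall4. The members' transcripts shared 0 runs of 50 bases with each other. The longest identical run was 38 bases, between Sall1 and Sall3, followed by 27 between Sall3 and Sall4, and Sall1 and Sall4 had 21 in common. At a length of 35 bases, 4 runs (0.076% of those of Sall1) were common to Sall1 and Sall3 and 0 to any other pair. Exons of Sall4 overlap those of Gm14261, a noncoding gene on the opposite strand, over 526 bases (9.5% of its exon length). The sources used here do not state whether counting used strand, so reads of that gene could count towards Sall4.

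The 4 libraries held 9779589 to 13555492 gene-assigned reads, recovered as whole numbers from the deposited values, and values below are normalized counts per 1000000 reads (CPM). The 10 limb mesenchyme markers summed to 1861 and 2010 CPM in the controls, against 1878 and 2305 in cyclopamine, with 0 members at 0 reads, so markers of the labelled tissue were present. Inhibition of the pathway was checked on Hedgehog targets. Gli1, a transcription factor gene induced by the signal (log2 fold change -3.10, SE 0.23), and the receptor gene Ptch1 (-1.44, SE 0.19) fell. Hhip, a Hedgehog-binding inhibitor, did not pass (-1.04, SE 0.29, limma adjusted p = 0.289). The comparison asked how Sall transcript levels in the cultured limb differ under inhibition of Hedgehog signalling. Of the 4 Sall genes, all of which passed the expression filter (a mean of at least 1 CPM), Sall1 and Sall3 fell, at an adjusted p under 0.05 in limma over the 13568 genes tested. Sall4 and Sall2 did not pass. Of all genes tested, 0.28% passed in either direction and 0.236% were called lower.

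Sall1, the member with the largest response, measured 116 and 125 CPM in the control libraries and 51.2 and 49 in the cyclopamine libraries. Both cyclopamine libraries lay under both controls, with 64.7 CPM between the nearest values, and an SD of 6.17 (n = 2) in control and 1.54 (n = 2) in cyclopamine. The cyclopamine mean was 41.7% of the control mean. On the log2(CPM + 0.5) scale the change was -1.25 (SE 0.15, 95% interval -1.57 to -0.94, limma adjusted p = 0.000921). It ranked 5 by p-value among the tested genes, and 45 of them (0.332%) had a log2 fold change at least as low. The values rest on 605 to 1696 reads per library. Counting error alone gives exact Poisson 95% intervals of 109 to 123 and 119 to 131 CPM in the controls, and 47.3 to 55.3 and 45.2 to 53.1 CPM in cyclopamine; the reads carry no molecular identifiers and may repeat a molecule, so these cover counting error only.

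Sall3, the close relative of Sall1 in sequence, stood at 63.2 and 68.6 CPM in control culture and at 37.7 and 30.7 CPM in cyclopamine. The groups did not overlap, and the cyclopamine libraries differed from each other more (SD 4.95, n = 2) than the controls did (SD 3.8, n = 2). The cyclopamine mean was 51.9% of the control mean. Its log2 fold change was -0.94 (SE 0.17, 95% interval -1.29 to -0.59) at a limma adjusted p = 0.0272, and 101 tested genes (0.744%) had as low a value. Its call ended when control 2 was left out, at -0.88 and an adjusted p = 0.0771. The size of the fall in Sall3 ran from -1.09 without cyclopamine 1 to -0.80 without cyclopamine 2, the widest range of the members that were lower.

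Sall4, the stem cell and forelimb factor, stood at 54.5 and 58 CPM in control culture and at 37.4 and 37.8 CPM in cyclopamine. Its groups did not overlap either, and its replicates were close together, with an SD of 2.52 (n = 2) in control and 0.257 (n = 2) in cyclopamine. The cyclopamine mean was 66.8% of the control mean. The log2 fold change of -0.58 (SE 0.16, 95% interval -0.91 to -0.24) had an unadjusted p = 0.00226 and an adjusted p = 0.289 in limma, so it did not pass over all genes. A log2 fold change as low was found in 346 tested genes (2.55%). Limma draws each gene's variance towards that of genes of like level, so the SE of 0.16 is not set by the Sall4 replicates alone.

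Sall2, the divergent member, stood at 74.7 and 88.5 CPM in control culture and at 74.1 and 84.3 CPM in cyclopamine. The groups overlapped over nearly their whole range. The log2 fold change was -0.04 (SE 0.16, 95% interval -0.37 to 0.29, limma adjusted p = 1.0), and its sign turned when control 2 (0.080) or cyclopamine 1 (0.052) was left out. The control libraries of Sall2 differed by more than counting error, with intervals of 69.4 to 80.3 and 83.5 to 93.6 CPM. The interval of its fold change overlaps that of Sall4 (-0.91 to -0.24). The Sall4 value of -0.58 lies outside the Sall2 interval and did not pass either, so that interval does not mark a limit of detection.

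**Figure D1:**
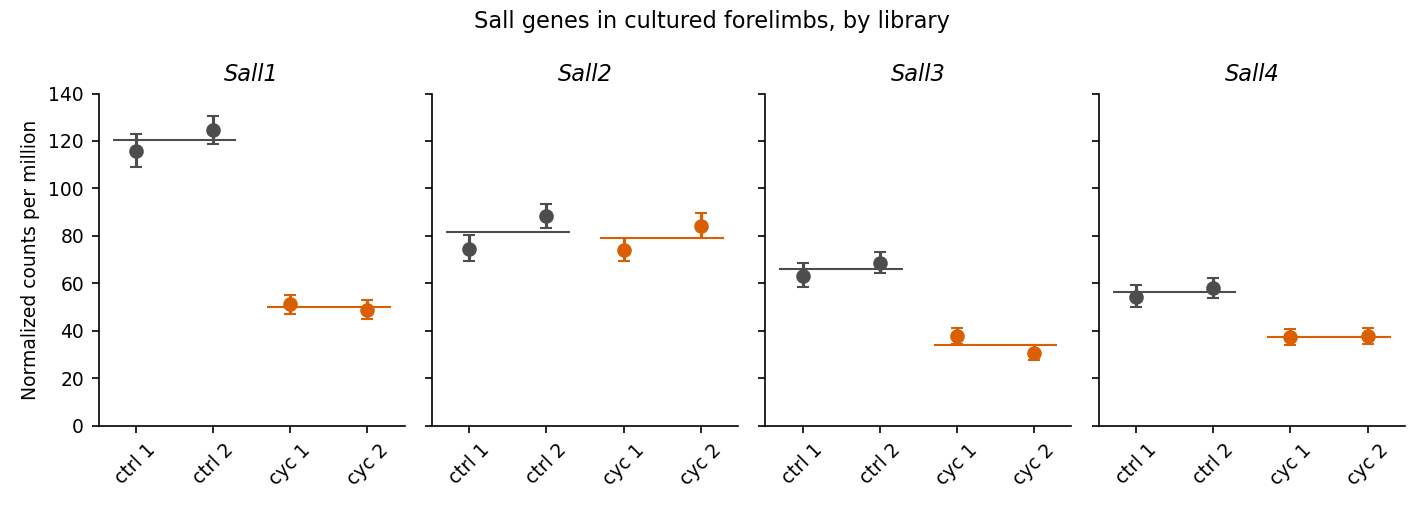
Level of each Sall gene in CPM (vertical axis, from 0) in control libraries 1 and 2 and cyclopamine libraries 1 and 2; points are libraries, error bars are exact Poisson 95% counting intervals and horizontal lines are group means. Sall1 separates most, from 116 and 125 CPM to 51.2 and 49 CPM, Sall3 and Sall4 also lie lower in both cyclopamine libraries, and the Sall2 groups overlap.

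For 3 of the 4 Sall genes both cyclopamine libraries lay below both controls, a pattern shown by 15.8% of the 13568 tested genes in that direction. At an unadjusted p under 0.05 in limma, 3 of the 4 were lower, beside 2.78% of tested genes. The median log2 fold change of all tested genes was 0.00, and the middle 90% of them lay between -0.41 and 0.51. In the authors' deposited table the log2 fold changes are -1.26 for Sall1, -0.95 for Sall3, -0.58 for Sall4 and -0.04 for Sall2. The authors' deposited table gives false discovery rates of 1.51e-10 for Sall1, 0.00023 for Sall3, 0.144 for Sall4 and 1.0 for Sall2, and 0.455% of its genes are under 0.05.

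**Figure D2:**
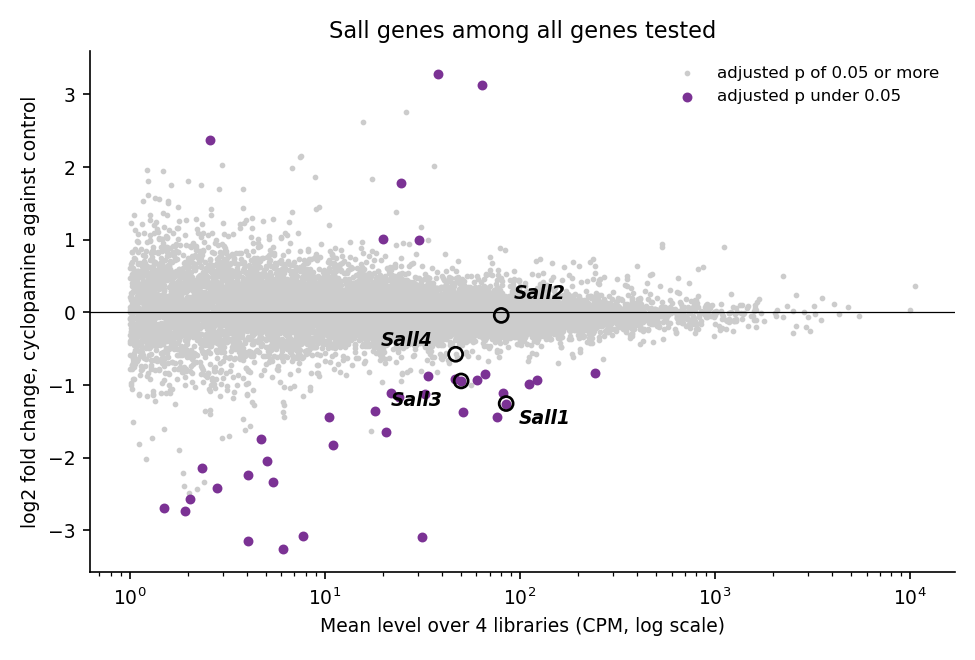
Log2 fold change of cyclopamine against control (vertical axis) by mean level in CPM on a log axis for the 13568 genes tested; purple points have a limma adjusted p under 0.05 and circles mark the Sall genes. Sall1 (-1.25) and Sall3 (-0.94) lie among the called genes, Sall4 (-0.58) lies at the lower edge of the cloud and Sall2 (-0.04) at its centre.

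Levels were compared between members per kb of merged exon, since a longer transcript yields more reads. In the controls the order was Sall1 (22 and 23.7 CPM per kb), Sall2 (13.8 and 16.3), Sall4 (9.84 and 10.5) and Sall3 (8.45 and 9.17). In cyclopamine Sall2 came first (13.6 and 15.5 CPM per kb), followed by Sall1 (9.72 and 9.31), Sall4 (6.75 and 6.82) and Sall3 (5.04 and 4.11). Neighbours in either order did not overlap between libraries; the closest were Sall4 and Sall3 in the controls. Sall1 thus changed place with Sall2 between the groups, and the order of Sall4 over Sall3 was the same in all 4 libraries. These lengths come from GENCODE vM21; the authors' own annotation is unnamed in the sources used here.

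The summed level of the family was 54.1 and 59.6 CPM per kb in the controls, against 35.1 and 35.8 CPM per kb in cyclopamine, so the family total was lower in both treated libraries. Sall1 made up 40.7% and 39.7% of that sum in the controls and 27.7% and 26.0% in cyclopamine. The share of Sall2 was 25.4% and 27.3% against 38.8% and 43.4%, while its own level per kb was nearly the same in both groups. Sall4 held 18.2% and 17.6% against 19.2% and 19.1%, and Sall3 held 15.6% and 15.4% against 14.3% and 11.5%. Sall1 held the largest share in both controls and Sall2 in both cyclopamine libraries.

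**Figure D3:**
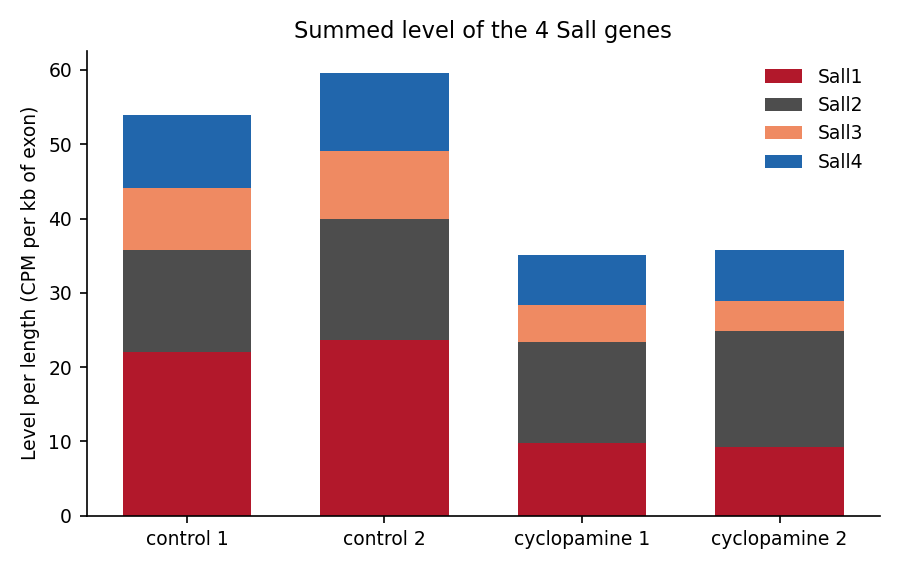
Summed level of the 4 Sall genes in CPM per kb of merged exon (vertical axis, from 0) in each of the 4 libraries, with the coloured parts of each bar standing for the members. The bars reach 54.1 and 59.6 in control and 35.1 and 35.8 in cyclopamine, and the Sall1 part shrinks most while the Sall2 part keeps its height.

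Whether members differed in their response was asked from their ratios within a library, which any scaling of the whole library leaves nearly untouched. The ratio of Sall1 to Sall2 was 1.55 and 1.41 in the controls and 0.693 and 0.584 in cyclopamine, a log2 difference of -1.21 (SE 0.14). The ratio of Sall1 to Sall4 was 2.12 and 2.14 in the controls and 1.36 and 1.29 in cyclopamine (log2 difference -0.68, SE 0.04), with replicate ratios that were nearly equal. Relative to Sall3 the Sall1 ratio was 1.83 and 1.81 against 1.35 and 1.59 (-0.31, SE 0.12). The ratio of Sall3 to Sall4 went from 1.16 and 1.18 to 1.01 and 0.816 (-0.37, SE 0.15). The 2 remaining ratios were those of Sall2 to Sall3 (log2 difference 0.90, SE 0.25) and to Sall4 (0.53, SE 0.11). In all 6 pairs the control and cyclopamine ratios did not overlap, but the pairs draw on the same 4 genes and are not independent. The share of gene pairs over the whole table that separate in this way was not computed. The count of 6 therefore has no background here and is not read as a difference in response. A two-sided exact permutation test of 2 against 2 libraries cannot go below p = 0.33, which each of the 6 pairs gave before and after Benjamini-Hochberg adjustment. With 2 libraries a group that test cannot reach 0.05, so these ratios are given as values with their SE. Unlike the SE of a fold change in limma, the SE of a ratio came from the libraries' own ratios alone. An SE from 2 libraries a group is itself uncertain. For Sall1 to Sall4 it was smaller than counting error alone would give, so it overstates the precision.

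Sall transcripts are known outside limb mesenchyme as well, in neural tube, kidney progenitors and some macrophages, so markers of those sources were summed in each library. In bulk samples, fewer cells of a type and less RNA per cell cannot be told apart. The 14 neural markers in the table summed to 48.1 and 77.1 CPM in control culture and to 9.7 and 13.5 CPM in cyclopamine, where 6 of them were at 0 reads in each library. Of the 8 tested, all were lower and 6 fell, among them Tubb3 (log2 fold change -1.82), Stmn2 (-2.04), Elavl3 (-2.24) and Zic1 (-3.25). Ina, a further called marker, had 0 reads in both cyclopamine libraries and 1.65 and 4.33 CPM in the controls, while Pax6 (-1.60) and Isl1 (-0.44) did not pass. Neural markers thus moved with the treatment in the same direction as Sall1 and Sall3, and their part in the Sall values was not tested. Control 2 held more neural marker signal than control 1, and leaving it out does not remove the difference in neural markers, since control 1 alone held 48.1 CPM. Without control 2, Sall1 had a log2 fold change of -1.20 (adjusted p = 0.00377) and the call of Sall3 ended, as given above. Of the neural markers 2, Tubb3 and Stmn2, passed without control 2, 3 passed with scaling to the library total or with a mean of at least 5 CPM required, and edgeR's quasi-likelihood test called 4. Zic1 ran from -4.42 without cyclopamine 2 to -2.08 without cyclopamine 1, and it did not pass without control 2 (adjusted p = 0.14), in edgeR's quasi-likelihood test (0.0912), in DESeq2 (1.0) or with a robust trend (0.847).

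Other marker lists held at most 1 gene past the threshold. The 8 nephric markers summed to 80 to 82 CPM in control culture against 82.5 and 84.3 with cyclopamine, 0 of 5 tested passed (Eya1, at a log2 fold change of 0.30, and Six2, at 0.18, had the smallest p-values), and Pax2 was at 0 reads in both cyclopamine libraries and under 1 CPM in the controls. The 8 macrophage markers summed to 17.2 to 24.8 CPM over all libraries, with 0 of 7 tested passing (Cd68 at -0.61 and Fcer1g at 0.26). Among 8 ectoderm markers only Fgf8, the ridge growth factor, fell (-1.64, SE 0.20). Wnt7a (-1.07) and Sp8 (-0.34) did not pass, and the sum was 290 and 265 CPM against 278 and 229 CPM. The 7 endothelial markers summed to 414 and 406 CPM against 447 and 485 CPM, with 0 passing (Kdr at 0.24 and Tek at 0.41). Erythroid markers were lowest in control 2, at 606 CPM, and reached 1305, 2134 and 1254 CPM in control 1, cyclopamine 1 and cyclopamine 2, with 6 of 6 higher, Hba-x (0.95) and Hbb-y (0.90) foremost, and 0 past the threshold. These values moved with single libraries: 3 erythroid markers passed without control 1 and 3 without cyclopamine 2, Hba-x ran from 0.37 without control 2 to 1.53 without control 1 (adjusted p = 0.0054), and Hbb-y from 0.39 to 1.40 in the same fits. Of 5 germ cell and pluripotency markers in the table only Kit was tested, at 0.07. Over the lists with 0 genes past the threshold, limb mesenchyme included, limma gave 5 of 36 genes an unadjusted p under 0.05, and edgeR's quasi-likelihood test and DESeq2 called 0. These were 4 of the 6 erythroid markers, all higher, and the limb mesenchyme marker Fgf10, which was lower. Among all tested genes, 2.78% were lower at that level. The share in both directions was not computed, so the count of 5 has no like background here and is not read as a result. Measured against the sum of the limb mesenchyme markers, Sall1 stood at 6.23% and 6.2% in the controls and 2.73% and 2.13% in cyclopamine, and Sall2 at 4.01% and 4.4% against 3.94% and 3.66%. With every library scaled to those markers, an alternative added after the data were seen, Sall1 (-1.26) and Sall3 (-0.95) still passed.

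The NuRD complex, through which Sall1 and Sall4 repress transcription, was measured as 14 subunit genes. Of these 9 were higher and 5 lower, 0 passed the threshold, and the median log2 fold change was 0.03, beside 0.00 over all genes tested. The helicase gene Chd4 stood at 974 and 889 CPM in control culture and at 983 and 955 CPM in cyclopamine, and the deacetylase gene Hdac1 measured 236 and 234 against 244 and 235 CPM; both were picked as core subunits after their values were seen. The smallest p-values belonged to Mta1 (-0.26, SE 0.16) and Gatad2a (-0.09, SE 0.15). At an unadjusted p under 0.05, 0 of the 14 were called in limma, and edgeR's quasi-likelihood test and DESeq2 also called 0.

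A list of 17 limb patterning genes known from genetic work with Sall genes or acting beside them in the limb had 10 lower and 7 higher members and a median of -0.33. Of these 4 fell: Fgf8 (-1.64, SE 0.20), Hoxd13 (-1.11, SE 0.19), Hoxd11 (-0.92, SE 0.18), which pattern the distal limb, and the BMP antagonist gene Grem1 (-0.88, SE 0.17). Tbx5, the partner of Sall4 in the forelimb, stood at 201 and 224 CPM in control culture and at 193 and 226 CPM in cyclopamine (-0.02, SE 0.16), named after its values were seen. Fgf10, a mesenchymal growth factor downstream of Tbx5 and Sall4, was at -0.60 (SE 0.16, adjusted p = 0.255 in limma) and did not pass. Whether its level depended on Sall4 here was not tested. Hoxa13 was at -1.03 (SE 0.28) and did not pass, but it passed without cyclopamine 2 (-1.39, adjusted p = 0.0287) and was at -0.67 without cyclopamine 1. The call of Grem1 ended when control 1, control 2 or cyclopamine 1 was left out, with an adjusted p of up to 0.144, and that of Hoxd11 ended without either control 1 or cyclopamine 2 (at most 0.148). In edgeR's quasi-likelihood test Hoxd11 did not pass either (adjusted p = 0.0728), and with scaling to the library total or the upper quartile 2 of the 17 genes passed, Grem1 and Hoxd11 being lost.

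Of 12 genes that share stem and progenitor cell roles with Sall4, 9 were tested, 7 were lower and the median was -0.36. At an unadjusted p under 0.05 in limma, 4 of the 9 were lower, beside 2.78% of all tested genes. In limma 0 passed the threshold, while edgeR's quasi-likelihood test called 0 and DESeq2 called 1, Tfap2c. The limma count was 2, Sox2 and Tfap2c, without control 1, without cyclopamine 1 and with a robust trend, 1 (Sox2) with scaling to the limb mesenchyme markers, and 3 with the replicate number as a block. Sox2 (-2.43, SE 0.51, limma adjusted p = 0.0724) measured 2.68 and 5.36 CPM against 0.789 and 0 CPM, and is also a neural progenitor gene. Tfap2c, which encodes an AP-2 transcription factor, measured 44.4 and 52.5 CPM against 29.8 and 24.6 CPM (-0.82, SE 0.18, adjusted p = 0.0784). Pou5f1, Nanog and Utf1, the pluripotency factors of the list, were under the expression filter at 1.24 CPM or less in every library.

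The genes with profiles most like each member were found among the 10998 other genes averaging 5 CPM or more, by the distance between log2 profiles over the 4 libraries after each gene's own mean was removed. Nearest to Sall1 were Mtus1 (distance 0.241, log2 fold change -1.10), Hsd11b2 (0.275, -1.13), which encodes a glucocorticoid-inactivating enzyme, and Cdk6 (0.296, -0.96), which encodes a cyclin-dependent kinase. Sall3 came 6 in that order, at 0.351. Nearest to Sall3 were the LIM-only factor gene Lmo2 (0.137, -0.84), the RNA-binding protein gene Msi2 (0.146, -0.84) and Tfap2c (0.151, -0.82), and Sall1 came 26. For Sall4 they were the amino acid transporter gene Slc7a2 (0.049, -0.61), Cdca7l (0.054, -0.58) and Pcdhga12 (0.0551, -0.54), whose reads could be split with neighbouring protocadherin genes that share exons. For Sall2 they were Fnbp1l (0.0065), Adnp (0.00919) and Rbmx (0.00967), with log2 fold changes of -0.04 in each case. These distances describe 4 libraries in 2 groups, in which many genes share a profile.

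The loci were examined for whether genes near a Sall gene moved with it. Within 1 Mb of the Sall1 start, 7 tested genes began, all downstream, with log2 fold changes from -0.08 to 0.30 and a median of 0.03. The nearest was Cyld, a deubiquitinase gene 347 kb away, at 24.8 and 26.6 CPM in control culture and 26 and 26.6 CPM in cyclopamine. On the other side the nearest tested gene was Tox3, 1304 kb away (0.20, SE 0.18). Around Sall3, 8 genes ranged from -0.08 to 0.25 (median 0.00), with Atp9b 52.7 kb away at 0.02 (SE 0.17) and Mbp at 1488 kb on the other side at 0.16 (SE 0.26). Around Sall4, 9 genes ranged from -0.51 to 0.64 (median 0.07), and the nearest on each side were Atp9a (25.5 kb downstream, 0.07) and Zfp64 (188 kb upstream, 0.14). The lowest of the 9 was Nfatc2, 166 kb downstream at -0.51 (SE 0.35), with 1.95 to 3.51 CPM over the 4 libraries, named after its values were seen. Around Sall2, 13 genes ranged from -0.27 to 0.25 (median -0.05), all of them downstream, and Mettl3 was the nearest at 23.6 kb (-0.02). On the upstream side the nearest tested gene was Dad1, outside that window at 1925 kb (0.19). In limma 0 of these 37 genes within 1 Mb passed the threshold and 0 had an unadjusted p under 0.05, and edgeR's quasi-likelihood test and DESeq2 on recovered reads called 0.

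**Figure D4:**
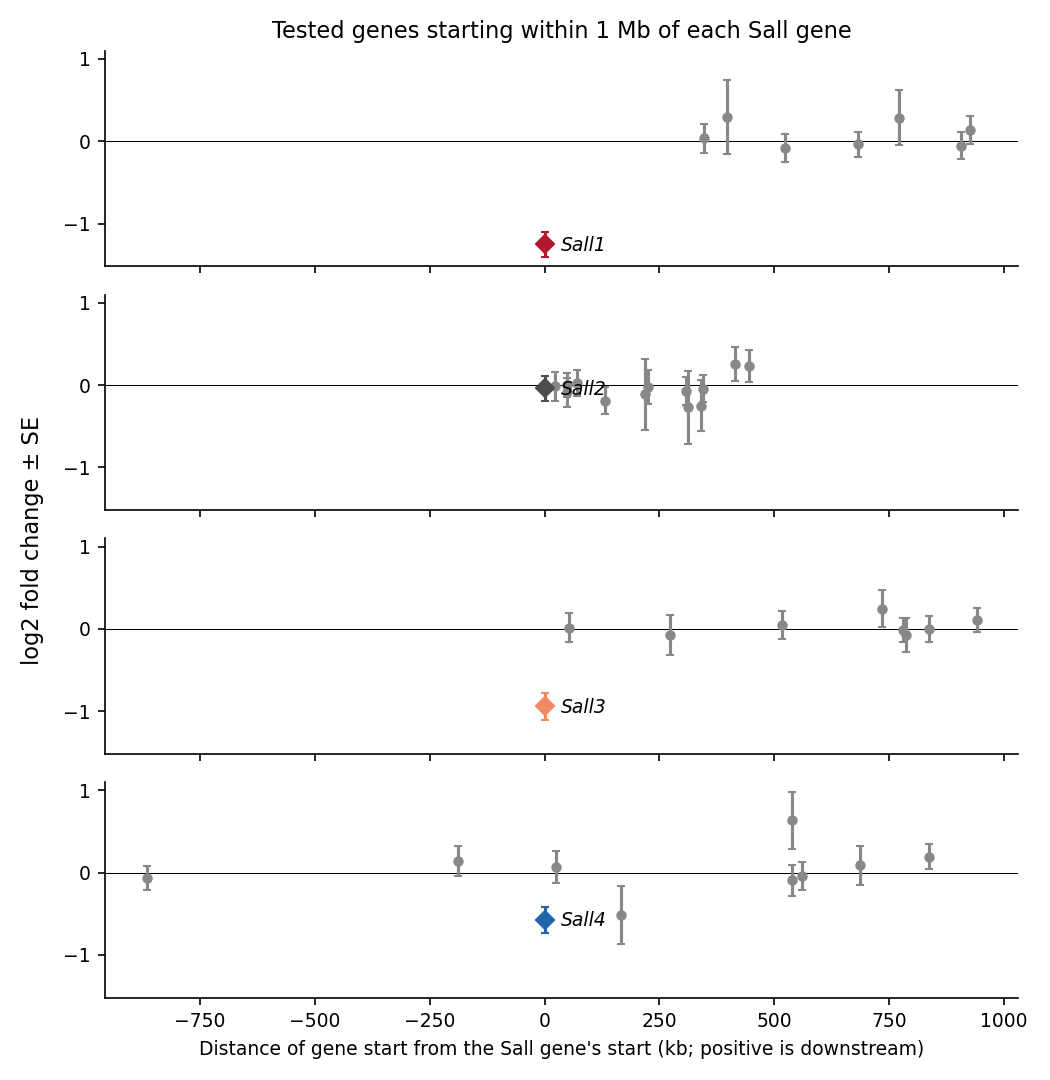
Log2 fold change (vertical axis, error bars are SE) of tested genes whose start lies within 1 Mb of each Sall gene's start, by distance in kb (horizontal axis, positive is downstream of the Sall gene); coloured diamonds are the Sall genes and grey points their neighbours. Sall1 and Sall3 lie at -1.25 and -0.94 while their grey neighbours lie between -0.08 and 0.30.

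The direction of Sall1, Sall3 and Sall4 was the same under each of the 17 other settings tried. They included other tests, scalings, pseudocounts, filters and the omission of each library. Filters, limma variance models and the replicate block cannot change the fold change itself in this layout, so their agreement in direction was fixed in advance. Sall1 ranged from -1.31 to -1.20 and passed in 15 of the 17, Sall3 ranged from -1.09 to -0.80 and passed in 14, and Sall4 ranged from -0.62 to -0.53 and passed in 1. Both calls ended in limma without the expression filter (adjusted p = 0.053 for Sall1 and 0.246 for Sall3) and without the intensity trend (0.214 and 0.367). The edgeR quasi-likelihood test on recovered reads gave an adjusted p of 0.00134 for Sall1, 0.027 for Sall3 and 0.276 for Sall4, with 0.295% of its tested genes past the threshold.

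**Figure D5:**
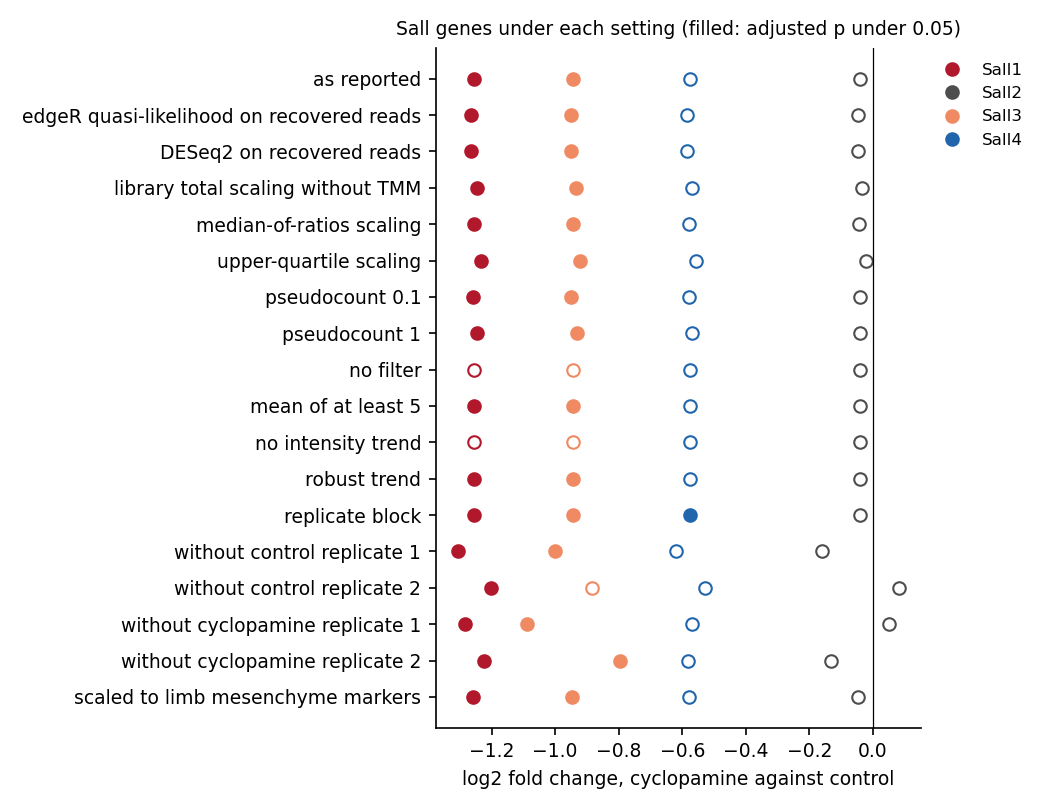
Log2 fold change of each Sall gene (horizontal axis, cyclopamine against control) under the reported fit and the 17 other settings (rows), with filled points where the adjusted p was under 0.05. The colours stay in 4 separate columns, with Sall1 near -1.25, Sall3 near -0.94, Sall4 near -0.58 and Sall2 around 0.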

How the data were processed

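RNA from cultured mouse forelimbs was extracted with TRIzol and sequenced on a SOLiD platform, per the labels' protocols. Per the submitters' processing notes, which assign no roles, the build was mm10 and the tools were edgeR 3.4.2, HTSeq 0.5.4p5, SAMtools, Bowtie and TopHat2 2.0.9. The deposited signal is a count per 1000000 (CPM) of an effective library size, scaled by the authors; annotation, strand handling and treatment of multiply mapped reads were not given in the sources used here. A comparison table deposited by the authors gives log2 values (fold change and mean CPM) with p-values and false discovery rates, per the file headers. All deposited values were whole multiples of 1 read (100% within 0.01 of a read), so reads were recovered. Genes averaging 1 CPM or more were compared in R 4.3.3 by limma 3.58.1 with an intensity trend, on log2(CPM + 0.5), two-sided and Benjamini-Hochberg adjusted over 13568 genes; the script was tested on simulated data. This scale understates changes of low genes. Alternatives used edgeR 4.0.16, DESeq2 1.42.0, other scalings, filters, pseudocounts and variance models, and each library left out. The members and gene lists were chosen with earlier results of these data known. Genes named are the 4 members, the Hedgehog targets, listed genes past the threshold (at most 5 a list) with the 2 next by p, the 3 most alike in profile and the nearest neighbours; others are named as chosen after their values were seen. Some items that this rule covers are not reported here.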

Additional observations from a re-analysis of the deposited data

How the results depend on the processing

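The labels tie the replicate numbers to no litter or day, and the deviations of same-numbered libraries from their group means correlated at 0.274 over 13568 genes. With the replicate number as a block, limma called 351 genes against 38 without it and Sall4 passed as well (-0.58, adjusted p = 0.00466). The block fit leaves little replicate spread for each gene, so its p-values rest mostly on a variance pooled over genes. A block cannot change the log2 differences of the 6 pair ratios in this balanced layout. Without the expression filter limma called 2 genes and 0 of the Sall genes (Sall1 -1.25, Sall3 -0.94), and without the intensity trend it called 0 genes and 0 of the Sall genes at the same fold changes. Scaling to the library total called 20 genes. With each library left out, all genes called ran from 43 to 122 and Sall genes from 1 to 2, the lone fit with 1 being that without control 2. In those fits an arm of 1 library is assumed to vary like the other group. Log2 fold changes ran from -1.31 to -1.20 (Sall1), -0.16 to 0.080 (Sall2, also 0.052 without cyclopamine 1), -1.09 to -0.80 (Sall3) and -0.62 to -0.53 (Sall4). Among other named genes that reversed, the ranges were -0.069 to 0.44 (Six2), -0.015 to 0.84 (Tek), -0.17 to 0.078 (Fnbp1l), -0.16 to 0.082 (Adnp), -0.16 to 0.081 (Rbmx), -0.016 to 0.085 (Cyld), -0.15 to 0.12 (Mettl3, also 0.0043 with upper-quartile scaling) and -0.18 to 0.21 (Atp9b). The cause of these shifts was not tested. The values of Sall1, Sall3 and Sall4 rest on 379 reads or more in each library.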
